A study of Mus musculus with 29 samples.

Results

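The cytosolic ribosomal protein genes were compared across kidney, tertiary lymphoid structures (TLS) and lymph nodes of lupus-prone mice. The members were the rows of the deposited table whose symbol is Rpl or Rps with a number and, for some, a letter ending, together with Rplp0, Rplp1, Rplp2 and Rpsa, and without symbols holding -ps. The rule used symbols and no measured value, and it gave 86 of the 13982 genes in the table, 37 of the small and 49 of the large subunit. The table held 14 libraries of (NZBxNZW)F1 mice, a hybrid strain that develops anti-dsDNA antibodies and lupus nephritis with age. Proteinuric mice gave 4 kidney libraries (mice H6, H20, H115 and H117, aged 39, 36, 25 and 32 weeks), 3 TLS libraries (mice H6, H20 and H115) and 3 lymph node libraries (mice H6, H20 and H117). Antibody-positive mice gave 3 lymph node libraries (mice D10, D11 and L25, aged 28, 29 and 18 weeks), and 1 young mouse of 4 weeks (C45) gave 1 lymph node library. All mice carried the same disease-prone genome, and none of the 14 libraries came from another strain. TLS are immune aggregates that form inside diseased organs, here cut by hand out of the kidney under a loupe, so that TLS and kidney of mice H6, H20 and H115 came from the same animals. A miRNeasy kit was used for RNA from antibody-positive mice and TRIzol for all other RNA, and disease state and kit cannot be told apart.

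Each ribosome is built from ribosomal RNA and a large set of proteins, most of which are present once per particle, so that their genes are usually expressed together. Their mRNAs begin with a terminal oligopyrimidine tract, a C followed by a run of C and T at the first transcribed bases, through which mTOR signalling controls how strongly they are translated. Lymphocytes that grow and divide are known for raising ribosome production, and several members (Rplp0, Rpl13a, Rps18, Rpl19, Rps29) are common reference genes for RT-qPCR.

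The start sites of 8 members are shown because these genes carried the largest tissue differences or stood out from the family, apart from Rps27l, which is shown beside its close relative Rps27. Each window holds the 15 bases before and the 15 bases after a start annotated by RefSeq (GRCm38.p6). Capitals mark a C followed by at least 5 pyrimidines anywhere in the window, which need not be a tract at the first transcribed bases. The run of Rps27l begins at position -12, before the start, and that of Rpl12 at position 3. For Rps24 and Rps27l, with 2 annotated starts each, a start holding a run is shown.
Rpl36a, chrX:134585639-134585668, + strand: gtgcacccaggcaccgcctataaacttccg
Rps27, chr3:90213634-90213663, - strand: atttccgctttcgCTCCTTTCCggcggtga
Rpl27, chr11:101442230-101442259, + strand: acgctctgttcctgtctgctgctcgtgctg
Rpl12, chr2:32961697-32961726, + strand: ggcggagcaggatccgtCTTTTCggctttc
Rps24, chr14:24490663-24490692, + strand: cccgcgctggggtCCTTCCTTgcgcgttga
Rpl7l1, chr17:46782642-46782671, - strand: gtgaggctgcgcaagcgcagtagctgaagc
Rpl7a, chr2:26910792-26910821, + strand: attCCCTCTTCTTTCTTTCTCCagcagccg
Rps27l, chr9:66946071-66946100, + strand: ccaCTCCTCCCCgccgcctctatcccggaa
Promoter sequences were found for 61 of the 86 members, and 35 of these (57.4%) held such a run in the window of at least 1 annotated start, against 27.6% of 9452 other genes of the table. The motif CCGGAAG, searched on both strands of the 300 bases around the start, was in 41.0% of these members and 19.1% of the other genes, and AAGATGGC was in 9.84% and 5.08%. The median log2 difference between kidney and lymph node was -1.71 in 35 members with the run and -1.50 in 25 tested members without it.

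The family took a smaller share of the reads in kidney than in lymph node or TLS. Of the reads outside nuclear ribosomal RNA, the members held 4.00% in kidney H6, 6.24% in kidney H20, 4.33% in kidney H115 and 5.17% in kidney H117, a mean of 4.94% ± 1.00 (SD, n = 4). In TLS the share was 11% in mouse H6, 7.23% in mouse H20 and 7.16% in mouse H115, a mean of 8.46% ± 2.20 (SD, n = 3). Lymph nodes of proteinuric mice held 16% in mouse H6, 14.2% in mouse H20 and 9.28% in mouse H117, a mean of 13.2% ± 3.48 (SD, n = 3). On this scale the kidney libraries did not overlap with those of TLS or of lymph node, whereas TLS of mouse H6 lay above the lymph node of mouse H117. In both mice with all 3 tissues, mouse H6 and mouse H20, the order was kidney, then TLS, then lymph node. The 95% Wilson interval of each of these shares was narrower than the spread between animals (3.93 to 4.07% in kidney H6 and 15.9 to 16.1% in lymph node H6) and covers counting error only. Of all reads, ribosomal RNA included, the members held 6.07% in kidney H20 and 5.63% in TLS H115, so kidney and TLS overlapped on that scale.

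**Figure D1:**
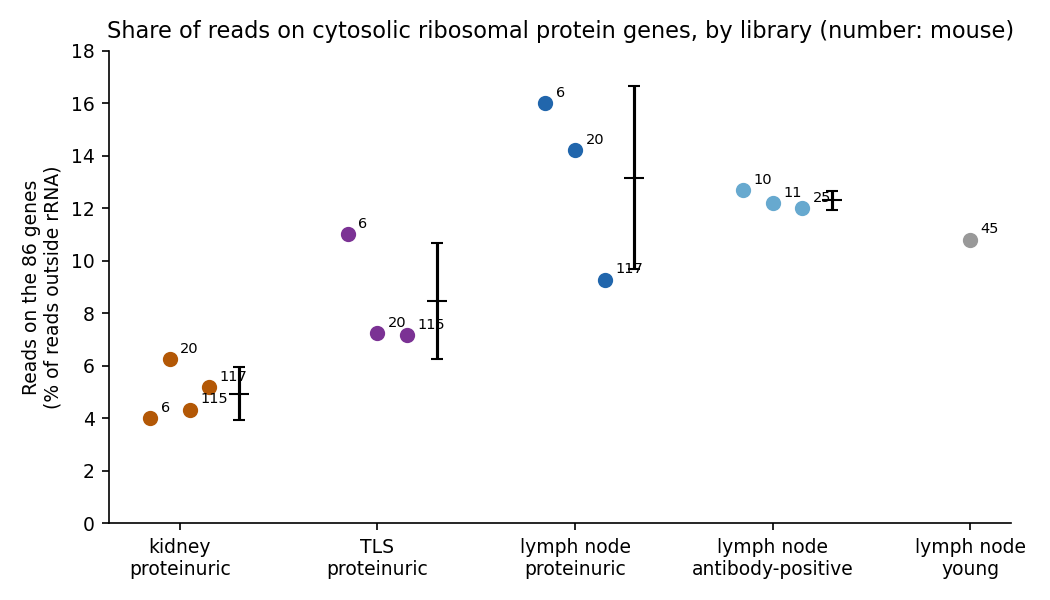
Percentage of reads outside ribosomal RNA that fell on the 86 genes, 1 point per library numbered by mouse, with the mean and SD of each group beside the points. The 4 kidney libraries lie between 4.00% and 6.24%, below all other libraries, and TLS and lymph node overlap.

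Libraries held between 343825 and 443379 reads, of which between 8648 and 54578 fell on members, and 81 members had a read in every library. Nuclear ribosomal RNA took 55.6% of the reads in kidney H117, 31.9% in lymph node H6 and 21.3% in TLS H115, and at most 5.33% in the other libraries. Markers of lymphocytes and tubules separated lymph node from kidney, whereas TLS held both. The summed value of 7 B cell markers was between 8.11 and 29.5 in kidney, 342.4 and 501.1 in TLS and 623.1 and 937.8 in lymph node, whereas 8 proximal tubule markers summed to between 6134.1 and 18081.3 in kidney, 974.3 and 7126.7 in TLS and 12.9 and 41.7 in lymph node. TLS H115 thus lay above kidney H6 for the proximal tubule markers, and 4 thick limb and collecting duct markers overlapped between kidney (792.0 to 3199.9) and TLS (664.9 to 1312.8). The 4 urothelial markers, genes of the lining of the renal pelvis, summed to between 124.2 and 702.2 in TLS and to at most 24.3 in the other libraries. In these bulk samples, fewer cells of a type and less RNA per cell cannot be told apart, and the part of cell composition in the differences given here was not tested.

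Between kidney and lymph node of proteinuric mice, 63 of the 83 members tested were lower in kidney and 0 were higher (limma on log2 of the normalised value plus 1, adjusted p under 0.05, n = 4 and 3). Over all 7382 genes tested, 20.8% were lower in kidney by the same test. To obtain the normalised value, 1 was added to each read count and the sum was scaled by a size factor per library. The median log2 difference was -1.52 over the members and -0.05 over all genes, and all 83 members had a negative difference, from -3.69 to -0.12. The 3 members not tested were Rpl3l and Rps4l, without a read in any library, and Rps12l2, which fell under the filter of a mean value of 5. Libraries of the 2 tissues did not overlap in 59 members, all lower in kidney, against 23.3% of all genes not overlapping in that direction. The count rested on lymph node H6, the highest lymph node library in 60 of 84 members with a read, since 34 members were called without it and 17 without the 3 libraries over 20% ribosomal RNA. All 17 were among the 63, and the median difference without those libraries was -1.19. In that fit 20.5% of the members and 18.8% of 7469 genes were called lower in kidney, so the share of members called was then close to the background.

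**Figure D2:**
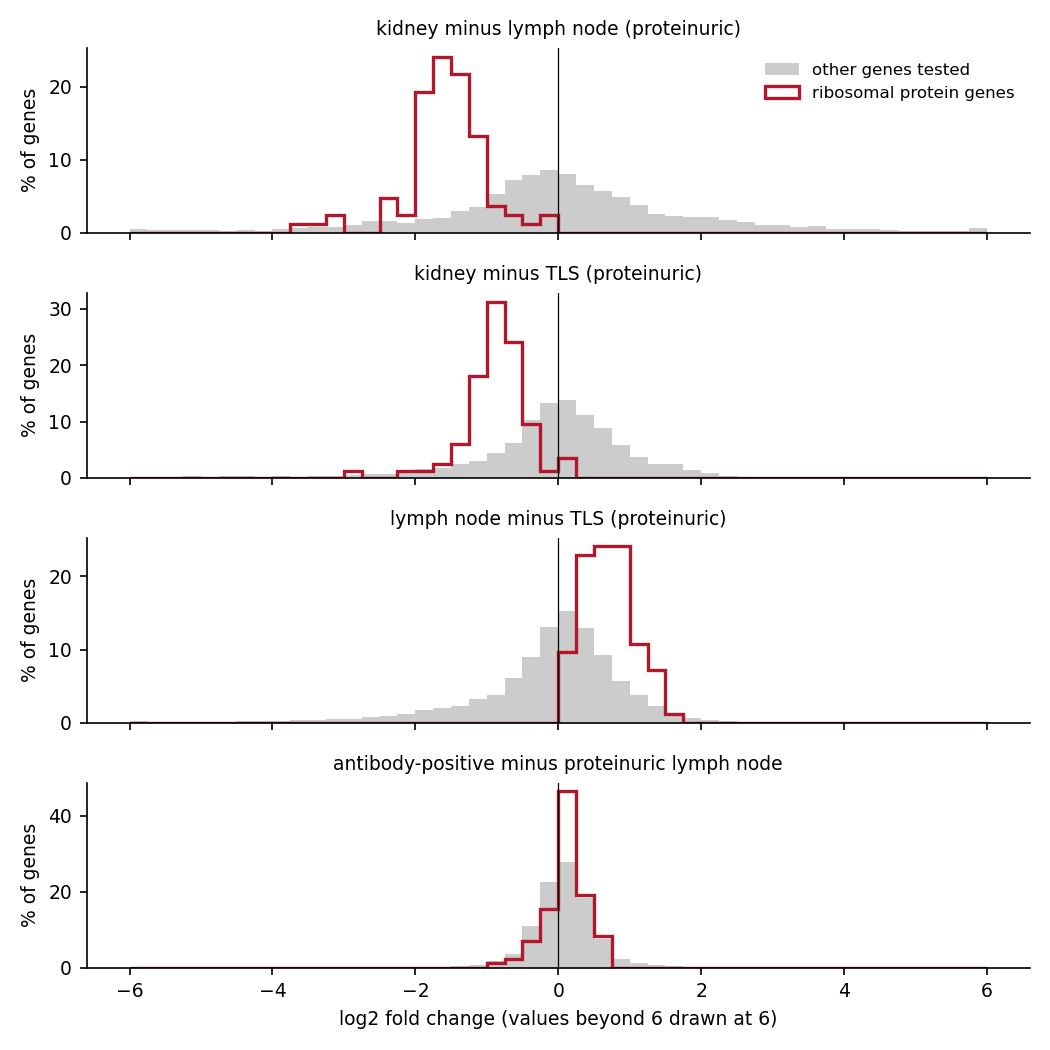
Distribution of log2 fold changes in the 4 comparisons as a percentage of genes, with ribosomal protein genes outlined in red over all other genes tested in grey. The family lies to the left of 0 for kidney minus lymph node (median -1.52) and kidney minus TLS (median -0.84), to the right for lymph node minus TLS (median 0.71) and around 0.13 for antibody-positive minus proteinuric lymph node.

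The largest difference was that of Rpl36a, a large subunit protein encoded on chromosome X (chrX:134585654-134588062). Its normalised value was 7.96, 9.28, 9.27 and 5.32 in kidneys H6, H20, H115 and H117, with 8, 10, 7 and 2 reads. In lymph node it was 169.5 in mouse H6, 118.4 in mouse H20 and 70.4 in mouse H117, and in TLS 48.3 in mouse H6, 26.7 in mouse H20 and 36.0 in mouse H115. The 3 tissues of proteinuric mice formed 3 groups without overlap, and the log2 difference between kidney and lymph node was -3.69 ± 0.36 (SE, adjusted p = 6.52e-06), or 12.9-fold on the scale of the value plus 1.

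Rps27, a zinc-binding small subunit protein, read 12.4, 55.7, 27.8 and 28.4 in the 4 kidneys, 353.6, 125.0 and 242.1 in TLS H6, H20 and H115, and 408.6, 464.2 and 153.0 in lymph nodes H6, H20 and H117. All kidneys lay below all TLS and lymph nodes, while TLS and lymph node overlapped. The log2 difference between kidney and lymph node was -3.45 ± 0.56 (SE, adjusted p = 0.000293). Summed with 2 near-identical copies that held 40.5% of the reads, the difference was -2.64 (adjusted p = 0.00196).

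Rpl12, a protein at the base of the ribosomal stalk, was at 34.5, 31.2, 15.1 and 12.4 in kidney and at 453.6, 98.5 and 125.4 in lymph nodes H6, H20 and H117 (log2 difference -3.00 ± 0.53, SE, adjusted p = 0.000585). Rpl27 of the large subunit was at 23.9, 56.5, 12.7 and 5.32 in kidney and at 346.3, 144.9 and 85.8 in lymph node (log2 difference -3.13 ± 0.76, SE, adjusted p = 0.00568). Kidney H115 held 10 reads of Rpl27 and kidney H117 held 2, fewer than the 3 reads taken as a floor. With copies summed, the differences were -2.68 for Rpl12 (adjusted p = 0.00151) and -2.15 for Rpl27 (adjusted p = 0.00216). For both genes the kidneys did not overlap with the lymph nodes, and lymph node H6 was the highest. Rps24, a small subunit protein mutated in some patients with Diamond-Blackfan anaemia, a failure of red cell production, was at 226.3 to 320.5 in kidney and at 3066.2, 1307.3 and 789.1 in lymph nodes H6, H20 and H117 (log2 difference -2.46 ± 0.48, SE, adjusted p = 0.00111). These 5 genes were also called without the 3 libraries over 20% ribosomal RNA. Of the 24 named members called lower in kidney, 8 were called in that fit, namely these 5, Rps18, Rps4x and Rps6, and the other 16 were not, among them Rplp0 (-0.97, adjusted p = 0.143), Rpsa (-1.42, adjusted p = 0.0691) and Rpl13a (-1.48, adjusted p = 0.0768).

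**Figure D3:**
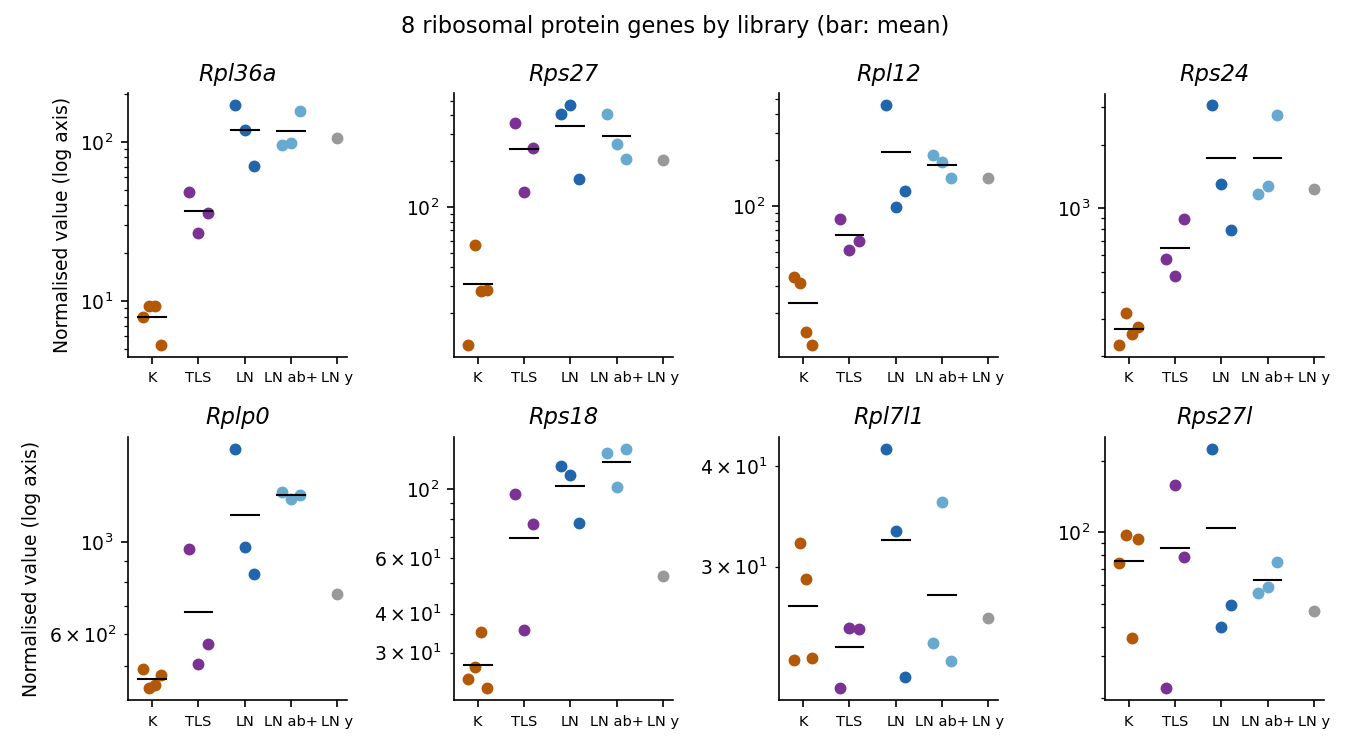
Normalised value of 8 members on a log axis, 1 point per library and a bar at the group mean. K stands for kidney, TLS for tertiary lymphoid structures and LN for lymph node of proteinuric mice, LN ab+ for antibody-positive mice and LN y for the young mouse. Kidneys lie lowest for Rpl36a, Rps27, Rpl12, Rps24 and Rplp0, whereas the groups overlap for Rpl7l1 and Rps27l.

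The ribosomal stalk recruits translation factors. Rplp0, its base, was at 442.8 to 492.5 in the 4 kidneys and at 1683.8, 973.8 and 836.0 in lymph nodes H6, H20 and H117, without overlap (log2 difference -1.25 ± 0.40, SE, adjusted p = 0.0233). Rplp2 differed by -1.95 ± 0.53 (SE, adjusted p = 0.00963). For Rplp1 the difference of -1.14 ± 0.47 (SE) had an adjusted p of 0.0674, although kidneys (755.8 to 992.0) lay below lymph nodes (1002.7 to 3560.4), and with copies summed Rplp1 was called (-1.23, adjusted p = 0.0422). Per kilobase of transcript, Rplp1 had the highest level of the family in kidney (1751.9 ± 193.4, SD) and in lymph node (4375.8 ± 2585.3, SD), and Rps15 came next in both, with spreads that overlapped in lymph node. In TLS the order of these 2 genes was turned, with 2468.2 ± 1666.0 for Rps15 and 2411.0 ± 685.6 for Rplp1, well within their spread.

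Rpsa, which is known both as a small subunit protein and as a laminin receptor, was at 357.2 to 481.0 in kidney and 907.2 to 1802.6 in lymph node (log2 difference -1.61 ± 0.43, SE, adjusted p = 0.00853). Rps6, the substrate of S6 kinase downstream of mTOR, was at 74.5 to 172.9 in kidney and 395.8 to 789.1 in lymph node (-2.31 ± 0.61, SE, adjusted p = 0.00806). On its own row, its value in TLS ranged from 68.7 in mouse H115 to 491.0 in mouse H6 and so overlapped with both other tissues. With copies summed, Rps6 in TLS (377.3 to 591.9) lay above kidney (209.5 to 308.8) and overlapped only with lymph node (569.8 to 943.5). Rps27a, made as a fusion with ubiquitin, was at 28.4 to 128.2 in kidney and 86.6 to 394.1 in lymph node, with a log2 difference of -1.51 and an adjusted p of 0.0513. With the mouse as a block Rps27a was called (-1.66, adjusted p = 0.00573), and with copies summed it was not (-0.76, adjusted p = 0.151).

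Of the ribosomal proteins tied to p53 control or to Diamond-Blackfan anaemia, Rpl5 and Rpl11 form the complex with 5S ribosomal RNA that binds Mdm2. Rpl5 differed by -1.15 ± 0.37 (SE, adjusted p = 0.0238) and Rpl11 by -1.53 ± 0.56 (SE, adjusted p = 0.0415) between kidney and lymph node. The corresponding log2 differences were -1.61 for Rps19, -1.37 for Rps26 and -1.56 for Rps7, all called, with adjusted p between 0.0176 and 0.0426. Rpl35a was not called (-0.70, adjusted p = 0.353). Of the common reference genes, 4 of 5 were lower in kidney, namely Rpl13a (-1.82 ± 0.48), Rps18 (-1.86 ± 0.38), Rps29 (-1.89 ± 0.53) and Rplp0, with adjusted p between 0.00156 and 0.0233, and Rpl19 was not called (-0.92 ± 0.39, SE, adjusted p = 0.0760). Kidneys lay below lymph nodes in all 5 of these reference genes, Rpl19 included.

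The small subunit had 29 of 35 members called and a median log2 difference of -1.71, and the large subunit 34 of 48 and -1.35. The ratio of small to large subunit reads was 0.752 to 0.933 in kidney, 0.846 to 0.963 in TLS and 0.916 to 1.07 in lymph node, and kidney H117, with 0.933, lay within the range of lymph node. Across the 83 members, the difference between kidney and lymph node had a Spearman correlation of 0.057 with transcript length and 0.0777 with the mean value, given as a description since the members share the same libraries.

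Between kidney and TLS, 3 of 83 members were lower in kidney and 0 were higher, against 8.62% of all genes lower in kidney. These were Rps27 (log2 difference -2.97 ± 0.56, SE, adjusted p = 0.00373), Rpl36a (-2.07 ± 0.36, SE, adjusted p = 0.00251) and Rps18 (-1.22 ± 0.38, SE, adjusted p = 0.0486). Most of the reads of Rps18 lay on copies, and its call was lost when these were summed (-0.84, adjusted p = 0.230) and with the mouse as a block (-1.10, adjusted p = 0.0788). The median member differed by -0.84 and 80 of 83 differences were below 0, while the median of all genes was 0.01. Libraries of the 2 tissues did not overlap in 35 members, all lower in kidney, against 13.4% of all genes. The share of members called was below that of all genes. TLS H6 was the highest TLS library in 54 of 84 members and TLS H20 the lowest in 59, and immunoglobulin genes took 25.3% of the reads outside ribosomal RNA in TLS H6, 15.9% in TLS H20 and 7.09% in TLS H115. The part of plasma cell RNA in that spread was not tested.

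Between lymph node and TLS, only Rpl36a was called, higher in lymph node (log2 difference 1.62 ± 0.39, SE, adjusted p = 0.0180), that is 1 of 83 members against 1.69% of all genes. Its call was lost in 4 of the 6 fits without a single TLS or lymph node library (TLS H20, TLS H115, lymph node H6 or lymph node H20, adjusted p for Rpl36a between 0.0563 and 0.0794) and without the libraries over 20% ribosomal RNA (1.32, adjusted p = 0.131). The median member differed by 0.71 and all 83 differences were above 0, while the median of all genes was 0.04. In 9 members the libraries did not overlap, all higher in lymph node, against 9.48% of all genes, a share close to the background. On the mean log2 value, TLS lay between kidney and lymph node in 80 of 83 members (96.4%), with kidney lowest in each, and 36.7% of all genes had that order. The exceptions were Rpl5, Rpl7l1 and Rps27l, in which TLS was lowest. With copies summed, the log2 difference of Rpl5 between kidney and TLS turned from 0.12 to -0.99 (adjusted p = 0.0809), and TLS was no longer lowest.

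To see which members departed from the family as a whole, the libraries were rescaled to an equal summed value of the members and the fit was repeated. Relative to the family, 6 of 83 members differed between kidney and lymph node. Rpl36a (-2.26 ± 0.46, SE, adjusted p = 0.000176), Rps27 (-1.96 ± 0.46, SE, adjusted p = 0.000745), Rpl27 (-1.66 ± 0.64, SE, adjusted p = 0.0314) and Rpl12 (-1.52 ± 0.52, SE, adjusted p = 0.0137) were lower in kidney, against 6.66% of 8405 genes. Rpl7l1 (1.24 ± 0.46, SE, adjusted p = 0.0231) and Rpl7a (0.98 ± 0.43, SE, adjusted p = 0.0494) were higher, against 54.7%. These last 2 calls were lost with the mouse as a block (adjusted p = 0.0683 and 0.0984), and Rps27l (1.54, adjusted p = 0.0124) and Rps2 (1.40, adjusted p = 0.0119) were called higher in their place. With copies summed, Rpl36a (-2.46, adjusted p = 4.97e-05) and Rps27 (-1.21, adjusted p = 0.0227) were called, whereas Rpl27 (adjusted p = 0.133), Rpl12 (adjusted p = 0.0626) and Rpl7a (adjusted p = 0.0612) were not. Against TLS, Rps27 (-2.18 ± 0.46, SE, adjusted p = 0.00151) and Rpl36a (-1.34 ± 0.46, SE, adjusted p = 0.0330) were lower in kidney relative to the family, against 4.14% of all genes, and the call of Rpl36a was lost with the mouse as a block (-1.27, adjusted p = 0.122). No member was called between lymph node and TLS on this scale by limma, against 10.5% of all genes, and 0 of 83 had an unadjusted p under 0.05. Libraries of these 2 tissues did not overlap in 2 members higher and 3 lower in lymph node, against 56 and 1866 of 8405 genes. Among them Rpl36a was at 72.7, 67.5 and 80.7 in lymph nodes H6, H20 and H117 and at 39.1, 37.2 and 38.9 in TLS. The absence of calls does not show that the members stand in the same proportions in both tissues. The middle 50% of the 83 differences between kidney and lymph node lay between -0.34 and 0.23 on this scale.

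**Figure D4:**
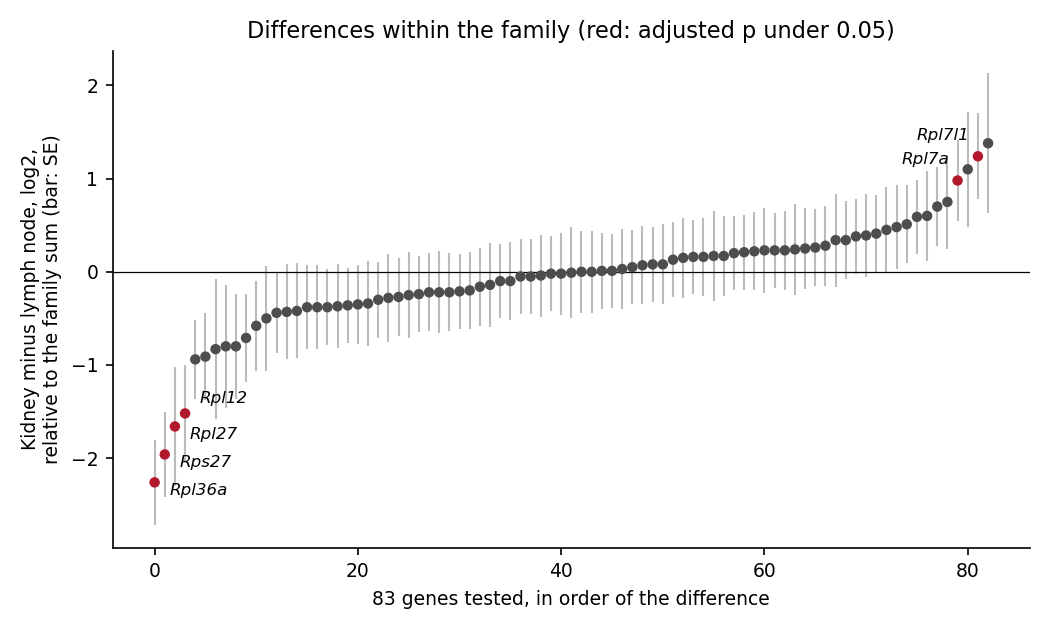
Log2 difference between kidney and lymph node for 83 members after libraries were scaled to an equal summed value of the family, with SE, in rising order. Rpl36a, Rps27, Rpl27 and Rpl12 at the lower end and Rpl7l1 and Rpl7a at the upper end, in red, had an adjusted p under 0.05.

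Some members have a close relative in the table. Rpl7l1, a relative of Rpl7 that acts in ribosome assembly, was at 23.0, 32.1, 29.0 and 23.1 in the kidneys, 21.2 to 25.2 in TLS and 42.0, 33.2 and 21.9 in lymph nodes H6, H20 and H117. It overlapped between all tissues (log2 difference between kidney and lymph node -0.23 ± 0.30, SE, adjusted p = 0.571). Its partner Rpl7 was lower in kidney (-1.10 ± 0.40, SE, adjusted p = 0.0398). Rps27l, a p53 target close in sequence to Rps27, was at 74.3, 97.0, 35.9 and 94.1 in the kidneys, 22, 158.0 and 78.5 in TLS and 224.6, 39.8 and 49.4 in lymph nodes, again with overlap (-0.12 ± 0.72, SE, adjusted p = 0.909).

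The value of Rps27l over that of Rps27 was 6.0, 1.74, 1.29 and 3.31 in kidneys H6, H20, H115 and H117, 0.0624, 1.26 and 0.324 in TLS H6, H20 and H115, and 0.550, 0.0857 and 0.323 in lymph nodes H6, H20 and H117. On the genes' own rows, each kidney ratio was above 1 and above every TLS and lymph node ratio. For both comparisons the exact two-sided permutation test on these rows gave p = 0.0571, the smallest p that 4 against 3 libraries allow. After Benjamini-Hochberg adjustment over 6 ratio comparisons it was 0.0857. With copies summed, the kidneys no longer stood apart. Rps27 then read 106.3 in kidney H20 and 151.8 in kidney H115, above Rps27l at 97.0 and 35.9. The ratio in kidney H115 was then below that of TLS H20 (158.0 over 288.4) and lymph node H6 (224.6 over 627.4). The ratio of Rpl7l1 to Rpl7 on own rows separated kidney (0.132 to 0.155) from TLS (0.0623 to 0.0889) and lymph node (0.0599 to 0.0956), with the same exact p. Rpl22l1, a relative of Rpl22, was lower in kidney together with its partner (-2.28 ± 0.66 and -1.35 ± 0.39, SE, adjusted p = 0.0150 and 0.0138), but the call of Rpl22l1 was lost with the mouse as a block (-2.17, adjusted p = 0.0510), and their ratio overlapped between tissues (exact permutation p = 0.229 against TLS and 0.286 against lymph node). Rpl3l, the relative of Rpl3 known from muscle, had no read, and Rpl3 was lower in kidney (-1.44 ± 0.39, SE, adjusted p = 0.00911). Rpl39 (-1.93), Rpl10 (-1.76) and Rps4x (-1.67) were lower in kidney too, with adjusted p between 0.00322 and 0.00999.

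Ribosomal protein genes have many processed copies in the mouse genome, and reads of a member can be assigned to them. Of the genes in the table under other symbols, 246 had a transcript at least 90% identical to a member over at least 50% of its length, and 65 members had such copies. The copies held 118031 reads over the 14 libraries and the members 472179. In 11 members the copies held more reads than the member's own row. For Rps18 the row held 1037 reads and the copies 21647 (95.4%), for Rpl26 613 and 19573 (97.0%), and for Rpl35a 292 and 8329 (96.6%). The levels of these 11 genes (Rpl12, Rpl34, Rpl5, Rpl28, Rpl29, Rps27a, Rpl26, Rpl15, Rpl35a, Rps2 and Rps18) are therefore uncertain. The 3 members Rps12l1, Rps3a2 and Rps3a3 are themselves annotated as processed copies, 100.0%, 99.5% and 98.9% identical to Rps12 and Rps3a1. Rps4l, without a read, is annotated as a transcribed processed pseudogene too, and no annotation was matched for Rps12l2. With copies summed, 63 of 80 members were lower in kidney than in lymph node, of which 60 were among the 63 called on their own rows. The share of all genes called in that fit is not given here. The value of Rps18 then ranged from 496.9 to 921.9 in kidney and from 1227.7 to 2476.5 in lymph node, again without overlap.

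**Figure D5:**
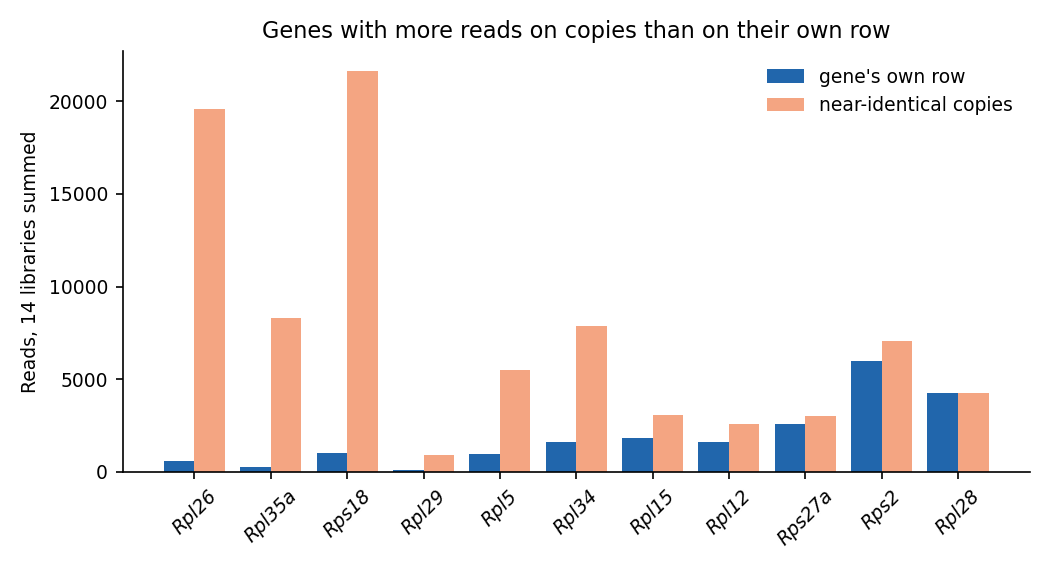
Reads on the member's own row and on its near-identical copies, summed over the 14 libraries, for the 11 members with more reads on copies. Rpl26, Rpl35a and Rps18 have over 95% of their reads on copies.

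Copy assignment also differed between libraries. Rps6 read 75.3 in kidney H115, 74.5 in kidney H117 and 68.7 in TLS H115 on its own row, and 303.7, 308.8 and 451.4 with its copies, the kidneys then lying above kidney H6 (209.5) and kidney H20 (285.9). The antibody-positive lymph node of mouse L25 had 154.9 on the row of Rps6 and 235.2 with copies, still below the other 2 antibody-positive libraries (774.8 and 897.1). That library was also low for Rps7, with 223.7 against 917.6 and 828.6 on its own row. Summing copies left the difference of Rps7 in place, with 224.9 against 927.8 and 863.8.

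Between antibody-positive and proteinuric lymph nodes, no member was called by limma, and 0 of 84 members tested had an unadjusted p under 0.05. Among all 6810 genes, 0% were called and 215 had an unadjusted p under 0.05. The edgeR and DESeq2 fits gave 0 members too, and relative to the family 0 members and 0.111% of all genes were called by limma, with 0 members at an unadjusted p under 0.05. The median member differed by 0.13 and the differences ranged from -0.92 to 0.66. The summed share was 12.7%, 12.2% and 12% in antibody-positive mice D10, D11 and L25, within the range of the proteinuric mice (9.28 to 16%). Only Rpl8, a member named here for that count after its values were seen, had libraries without overlap, against 8.58% of all genes. Rpl36a was at 95.5, 98.9 and 157.2 and Rplp0 at 1323.5, 1275.7 and 1304.4 in antibody-positive mice D10, D11 and L25. Within the proteinuric lymph nodes, mouse H117 was lowest in 76 of 84 members. The young lymph node, 1 library without a replicate, had a share of 10.8% and lay within the range of the 6 other lymph nodes in 77 of 84 members, below it in 6 and above it in 1.

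Other genes of translation and growth were examined as 5 lists. Of 32 translation factors, 6 were lower in kidney than in lymph node and 0 higher (median log2 difference -0.37), or 18.8% against 20.8% of all genes, a share close to the background. They included Eef1b2, a subunit of the elongation factor 1 exchange complex (-1.70 ± 0.40, SE, adjusted p = 0.00446), and Eef1g (-1.01, adjusted p = 0.0376). Of 12 ribosome-associated or terminal-oligopyrimidine genes, 7 were lower in kidney (58.3%, median -1.30), among them Gnb2l1, which encodes the ribosome-bound scaffold Rack1 (-1.56), Fau, which encodes the small subunit protein eS30 as a fusion (-1.68), Npm1 (-1.33) and the small nucleolar RNA host Gas5 (-2.08). Ribosome biogenesis genes were tested in 32 cases, of which 7 were lower in kidney (21.9%, close to the 20.8% of all genes, median -0.55), and included Tcof1, a factor of ribosomal RNA transcription, at 3.47 ± 1.20 in kidney and 21.2 ± 8.88 in lymph node (log2 difference -2.26), the methyltransferase Fbl (-1.80) and Nop56 (-1.48). The kidney mean of Tcof1 lay near the floor, since 3 reads were worth 3.37 in kidney H20 and up to 7.10 in kidney H117. None of the translation factors or terminal-oligopyrimidine genes was called between kidney and TLS, and 3 biogenesis genes were lower in kidney (Fbl, Tcof1 and Dkc1), or 9.38% against 8.62% of all genes.

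Among 11 growth-control genes tested, the mTORC1 inhibitor Sesn2 (log2 difference 2.01) and Mtor itself (1.20) were higher in kidney than in lymph node and the inhibitor Ddit4 was lower (-1.73), with adjusted p of 0.00258, 0.0390 and 0.00618. These were 18.2% higher and 9.09% lower, below the 23.0% and 20.8% of all genes, and the other 8 were not called. Mitochondrial ribosomes translate the few proteins encoded by mitochondrial DNA. Of 66 genes of their proteins tested, 5 were higher in kidney than in lymph node (Mrpl50, Mrps35, Mrpl10, Mrpl12 and Mrps6) and 0 were lower, against 23.0% of all genes higher in kidney, with a median of 0.31. No gene of these 5 lists was called between antibody-positive and proteinuric lymph nodes.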

How the data were processed

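Poly(A) RNA was fragmented with RNase III and sequenced on an Ion Torrent PGM, and the authors mapped and counted the reads on GRCm38 with the defaults of CLC Genomics Workbench 8, which leaves the treatment of reads with several matches unstated here. The deposited table holds a normalised signal per gene, which the values show to be the read count plus 1 divided by a DESeq size factor, since 100.0% of the values came out whole within 1e-06. Reads were recovered from it, and 13347 of 13982 symbols matched GENCODE M21. The whole kidney libraries of the series were not analysed here.

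The members, gene lists and tests were chosen with earlier results of these data known. The main test was limma 3.58.1 (trend and robust moderation, R 4.3.3) on log2 of the signal plus 1, for genes with a mean of at least 5, in 1 fit of the 10 proteinuric libraries and 1 of the 6 adult lymph nodes, with Benjamini-Hochberg adjustment. The main test was tried on simulated counts with the same dispersion for all genes and no pairing of mice. Its behaviour at the spread of these libraries was not tested. Alternatives were edgeR 4.0.16 and DESeq2 1.42.0 on the recovered reads, other pseudocounts, filters and scalings, and fits without single libraries. The count of 3 reads, taken as a floor, was worth a value of 3.14 to 7.10. Transcript lengths were those of the longest principal transcript, and copies were found with blastn.

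Named genes were the 5 called members with the largest difference and no overlap in each comparison, direction and scale, and fixed sets (stalk proteins, Rpsa, Rps27a, Rps6, relatives with their partners, reference genes and genes tied to Diamond-Blackfan anaemia). Other members and the genes of other lists were named after their values were seen. Rpl10l and Rpl39l were not analysed here.

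Numbers mark the same mouse, so samples are paired. Deviations from the group mean correlated with a median r of 0.114 in 8 pairs of the same mouse (-0.335 to 0.454) and 0.0353 in 25 other pairs. Kidney and TLS of the same mouse had r = 0.351 (H6), 0.364 (H20) and 0.454 (H115). Kidney and TLS of different mice had r from -0.498 to 0.361. Pairs of the same mouse with a lymph node ran from -0.335 to 0.202. The main fit did not use the pairing.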

Additional observations from a re-analysis of the deposited data

Results flagged for a closer look

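In 3 members, 1 kidney lay apart from the other kidneys by Dixon's ratio of its gap to the whole range. Rpl39 in kidney H20 was at 182.2, against 51.0 to 73.4 in the other kidneys. Rpl13a in kidney H6 was at 114.1, against 161.5 to 164.5, and Rps29 in kidney H6 was at 70.7, against 215.6 to 221.9. Chance flags about 1 in 20 groups, and 33 sets of kidney values were examined.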

How the results depend on the processing

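No called value changed sign under the alternatives run. Of the results for families of genes, 110 alternatives gave a like value and 31 moved it, and for single members 2106 kept the call or its absence, 71 lost it and 24 gained it. For kidney against lymph node, 17 members were called without the 3 libraries over 20% ribosomal RNA and 34 to 74 without single libraries, the lowest without lymph node H6. For kidney against TLS, 6 were called when reads were scaled outside ribosomal RNA and immunoglobulin genes and 2 to 4 without single libraries. For lymph node against TLS, 0 were called with only the 2 tissues in the fit or without the libraries over 20% ribosomal RNA, 2 by DESeq2 and 2 with copies summed, and 0 to 1 without single libraries. Relative to the family, 3 to 6 were called without single libraries for kidney against lymph node (3 without lymph node H6) and 1 to 2 for kidney against TLS (1 without kidney H115, kidney H117 or TLS H6). With the mouse number as a replicate block, the pairing gave 66, 2 and 1 called members for kidney against lymph node, kidney against TLS and lymph node against TLS, and 6, 1 and 0 relative to the family, where 4 of the 6 and 1 of the 1 were also called without the block. The mean share of the family moved in kidney to 6.19% outside ribosomal RNA, immunoglobulin and mitochondrial genes and to 6.49% with copies, and in TLS to 12.3% and 10.7%. In proteinuric lymph node it moved to 17.4% outside ribosomal RNA and immunoglobulin genes and to 18.6% when mitochondrial genes were left out too. In antibody-positive lymph node it was 15.4% and 18.1% on these scales, 11.8% of all reads, 10.0% without the 5 members with the most reads and 15.2% with copies, and in the young lymph node 13.7%, 15.9%, 10.6%, 8.95% and 13.2%. Scaling outside ribosomal RNA and immunoglobulin genes shifted the median of all genes to -0.35 and that of the members to -1.80 for kidney against lymph node, and turned the median of the members to -0.11 for antibody-positive against proteinuric lymph node, where no member was called. For these alternatives, the share of all genes called was given only for kidney against lymph node without the 3 libraries over 20% ribosomal RNA. The other counts of called members under the alternatives therefore stand without a background. Sums with copies were chosen after seeing the data. Except where a setting used fewer libraries, the cause was not tested.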
